A study of Saccharomyces cerevisiae with 6 samples.

Results

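Sulphur assimilation and methionine genes of Saccharomyces cerevisiae were followed in a wine yeast without KNR4 and in its parent during alcoholic fermentation. The set has 10 genes of the 6388 in the authors' tables, and each was found by its gene name or, for JLP1, by its systematic name YLL057C. They were chosen by a list drawn up with the mutant against wild type results of both phases known, so their ratios are given as a description and the calls on them are not tests.

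EC1118 is an industrial wine strain with wild-type KNR4. EKD-13 was made from it by deleting both KNR4 copies, and no other allele or agent is given for either strain. Both grew at 28 °C in 1 L of MS300, a synthetic grape must, and RNA was taken in mid-exponential phase, once 10 g of CO2 had been released, or in stationary phase, at 70 g. Each of 6 two-colour spotted arrays set mutant RNA against wild-type RNA from separate fermentations, with 3 arrays per phase. On array 2 of each phase the dyes were swapped, with the mutant in Cy3 and the wild type in Cy5. The mutant is a single strain, so the deletion cannot be told apart from any other difference between EKD-13 and EC1118.

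Yeast takes up sulphate, activates it with ATP, reduces it to sulphite and then to sulphide, and joins the sulphide to O-acetylhomoserine to make homocysteine. Homocysteine is methylated to methionine or passed through cystathionine to cysteine and glutathione. The activator Met4, recruited to DNA with Cbf1 or with Met31 and Met32, turns these genes on when sulphur amino acids are short, and the ubiquitin ligase subunit Met30 holds Met4 back when they are plentiful. Wine yeasts also make sulphite and hydrogen sulphide through this pathway during fermentation.

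Each value is the authors' log2 ratio of mutant over wild type, averaged over the 2 spots of a gene, and a mean is given with the SD over the arrays of a phase. The array table held 15488 spots, of which 77.0 to 85.6% had a ratio on the mid-exponential arrays and 53.1 to 60.6% on the stationary arrays. KNR4 was at -1.89 and -1.74 in the authors' deposited tables of the mid-exponential and stationary phases, and had a ratio on a single array, mid-exponential array 3, at -4.51. Stationary array 2 stood apart: its ratios over all genes correlated at 0.165 and -0.009 with the other stationary arrays, which correlated at 0.561 with each other. Its mutant and its wild type were from separate fermentation sets, unlike those of the other 5 arrays. It was also the dye-swapped array of its phase, so dye and fermentation set cannot be told apart there. The swapped mid-exponential array 2 correlated at 0.249 and 0.385 with the other mid-exponential arrays, which correlated at 0.477 with each other. Markers of haploid cells (16 genes) and of sporulating cells (14 genes) gave 0 calls in the authors' deposited tables of either phase. A call compares mutant with wild type, so this does not show whether either strain held such cells. The markers were dim, with median percentiles of mean log2 intensity among all genes of 8.80 and 5.42 in mid-exponential phase. In stationary phase these were 17.1 and 14.2. In bulk RNA, fewer cells with a transcript and less transcript per cell cannot be told apart.

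Of the 10 genes, 9 had array ratios. MET16 was printed in a group of plate wells whose gene names could not be relied on, and its values come from the authors' deposited tables alone. In mid-exponential phase 8 of the 9 had a ratio on all 3 arrays, and MUP1 had one on 2. In stationary phase 3 of them, MET2, SUL1 and CYS3, were on all 3 arrays, and 26 of 27 possible values were present in mid-exponential phase against 17 of 27 in stationary phase. A limma model over all 6 arrays tested the 4289 genes that had ratios on 2 or more arrays in both phases. That took in JLP1, SUL1, MET10, MET14, MET2 and CYS3, 6 of the 10.

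In mid-exponential fermentation JLP1, which frees sulphur from sulphonates, and the permease genes SUL1 and MUP1 lay below the wild type on each array that measured them. Not all uptake genes did. SUL2 and MMP1 were above 0, but both are on chromosome XII, and with that chromosome's median taken off their means were 0.16 and 0.17. The 6 tested genes for uptake and export of sulphur compounds had a median of -0.05, with 3 of the 6 below 0. Those 6 leave out MUP1 and OPT1, which had too few stationary ratios. In the authors' deposited table all 9 genes of that list had a median of -0.25, with 5 below 0. Among the core enzymes of the set, MET3, MET14, MET6 and CYS3 had means within 0.20 of 0, and MET10 and MET2 lay above 0 on all 3 arrays. In the authors' deposited table JLP1, SUL1 and MUP1 had an adjusted p under 0.05 as lower (4.63% of all 6388 genes did) and MET10 and MET2 as higher (5.67%). The limma refit called 1 of the 6 tested members lower, JLP1, where 0.0466% of the 4289 genes were called lower, and 0 higher, where 0.163% were.

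**Figure D1:**
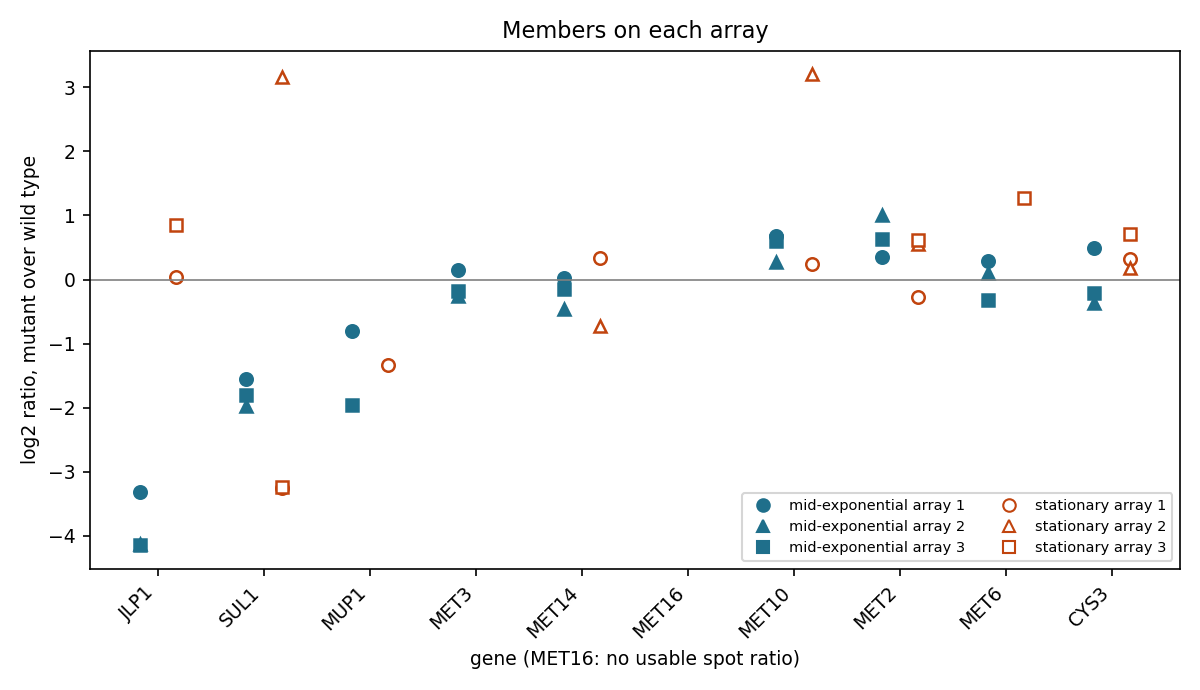
Log2 ratio of mutant over wild type (vertical axis) for each of the 10 genes (horizontal axis), with a point per array, filled for mid-exponential and open for stationary, and a circle, triangle or square for arrays 1, 2 and 3. JLP1 lies between -4.14 and -3.32 in mid-exponential phase and above 0 on both stationary arrays that measured it, and SUL1 lies at 3.16 on stationary array 2 and near -3.2 on the other two.

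JLP1 (YLL057C, chromosome XII) encodes an iron- and 2-oxoglutarate-dependent dioxygenase that frees sulphite from sulphonates such as taurine, which lets yeast use them as a sulphur source. Its log2 ratio was -3.32, -4.13 and -4.14 on mid-exponential arrays 1, 2 and 3, and 0.04 and 0.85 on stationary arrays 1 and 3. The mid-exponential values were all far below the stationary ones, and the phases did not overlap. The mid-exponential mean was -3.86 ± 0.47 (SD, n = 3), 14.6-fold lower in the mutant, and the stationary mean was 0.45 ± 0.58 (n = 2). No other of the 5257 genes with a ratio on all 3 mid-exponential arrays had a lower mean. The 2 spots differed by 0.24, 1.03 and 0.65 on the mid-exponential arrays, and the highest single spot was at -3.20. The limma adjusted p was 0.028 in mid-exponential phase and 0.454 in stationary phase. The mid-exponential call was lost with a dye term (0.098), with the phase fitted alone (0.093), from the second spot alone (0.055) and with any mid-exponential array (0.197 to 0.389) or stationary array 1 or 3 (0.097 and 0.068) left out.

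The authors' deposited table gave JLP1 a smaller size, -1.31 with an adjusted p of 4.8e-04, which was the 8th lowest of its 6388 genes, and 0.07 with an adjusted p of 0.933 in the stationary table. The mean of the deposited array ratios was 2.94 times as large on the log2 scale in mid-exponential phase. SUL1 differed in the same way between the sources, and MET10 and MET2 less. How the authors handled dim spots and background in either file is not given in the sources used here, and the cause of the gap was not tested.

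**Figure D2:**
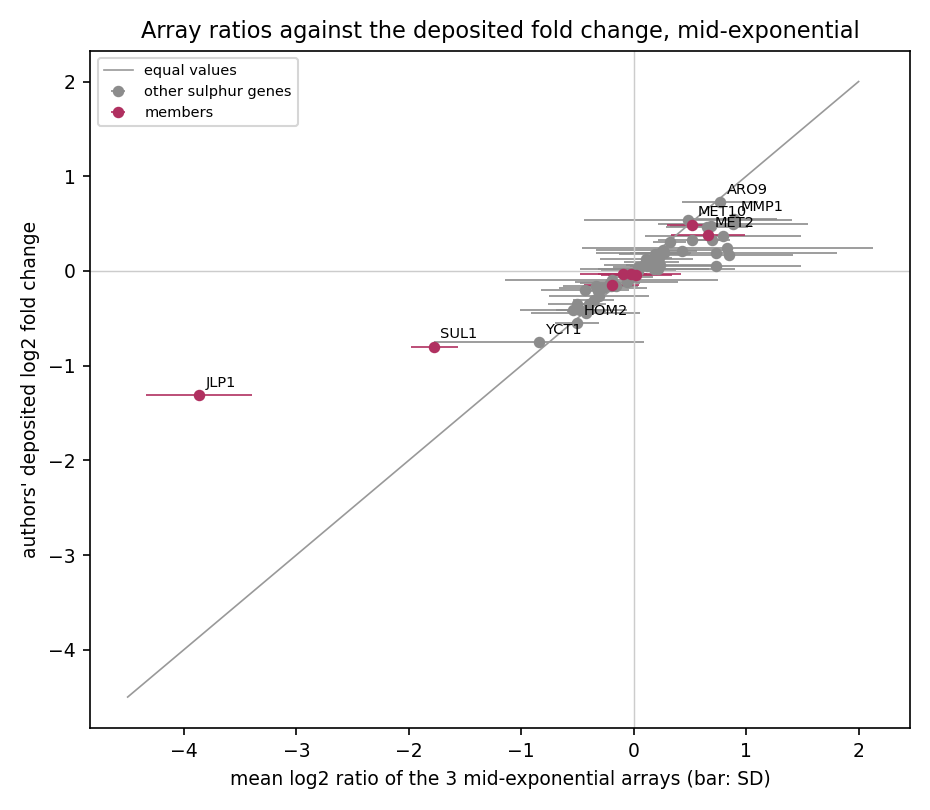
Authors' deposited log2 fold change in mid-exponential phase (vertical axis) against the mean log2 ratio of the 3 mid-exponential arrays (horizontal axis, bar: SD) for sulphur genes with all 3 arrays, with the members in red and a line of equal values. JLP1 and SUL1 sit left of the line, at -3.86 and -1.77 on the arrays against -1.31 and -0.80 in the table, while MET10 and MET2 sit nearer to it.

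SUL1 encodes a high-affinity sulphate permease of the plasma membrane. Its log2 ratio was -1.55, -1.97 and -1.80 on the mid-exponential arrays and -3.25, 3.16 and -3.23 on stationary arrays 1, 2 and 3. The mid-exponential values were close to each other, and stationary array 2 had the opposite sign to the other 5. The mid-exponential mean was -1.77 ± 0.21 (n = 3), 3.42-fold lower. The stationary mean of -1.11 ± 3.70 (n = 3) had a spread over 3 times its size, and a single spot carried the ratio on stationary arrays 1 and 2. The limma adjusted p for mid-exponential phase was 0.602, with 1 estimate of spread for both phases, and 0.093 with that phase fitted alone. With stationary array 1, 2 or 3 left out it was 0.547, 0.028 and 0.528. The authors' deposited tables had SUL1 at -0.80 (adjusted p 0.0072) and at -0.11 (adjusted p 0.897).

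MUP1 encodes a high-affinity methionine permease. Its log2 ratio was -0.80 and -1.96 on mid-exponential arrays 1 and 3 and -1.34 on stationary array 1. All 3 values were below 0, with a mid-exponential mean of -1.38 ± 0.82 (n = 2). It had too few stationary values for the refit. The authors' deposited tables listed -0.82 (adjusted p 0.018) and -0.26 (adjusted p 0.199).

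The enzymes that activate sulphate were near the wild type. MET3, the ATP sulphurylase that starts the pathway, was at 0.14, -0.26 and -0.18 on the mid-exponential arrays and had no stationary ratio. MET14, the adenylylsulphate kinase that acts next, was at 0.02, -0.46 and -0.15, and at 0.33 and -0.72 on stationary arrays 1 and 2. Both lay on either side of 0 from array to array, with mid-exponential means of -0.10 ± 0.22 and -0.20 ± 0.24 (n = 3 each). MET16, the phosphoadenylylsulphate reductase that makes sulphite, was listed at 0.07 (adjusted p 0.851) and 0.04 (adjusted p 0.958) in the authors' deposited tables.

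The well labels of MET16 look like numbers that a spreadsheet had rewritten, which would move a name by a single column. Read that way, its spots gave 0.14, -0.09 and 0.55 in mid-exponential phase and 0.68, 0.30 and 1.93 in stationary phase, with means of 0.20 ± 0.33 and 0.97 ± 0.85 (n = 3 each). This reading was chosen after seeing the data. Over the affected wells it brought the correlation with the authors' log2 fold changes across genes from 0.383 to 0.772 in mid-exponential phase and from 0.302 to 0.729 in stationary phase, against 0.840 and 0.788 over the other wells. All 3 stationary values of MET16 under this reading were above 0.

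MET10 encodes a subunit of sulphite reductase, which turns sulphite into sulphide. Its log2 ratio was 0.68, 0.27 and 0.60 on the mid-exponential arrays and 0.25 and 3.20 on stationary arrays 1 and 2. The first 4 values were small and of the same sign, and the last stood far above them. On stationary array 2 its 2 spots read 1.04 and 5.37, which is the widest gap between spots among the members. The mid-exponential mean was 0.52 ± 0.22 (n = 3), 1.43-fold higher, and the authors' deposited table gave 0.49 (adjusted p 0.024). The stationary mean was 1.73 ± 2.09 (n = 2), and the authors' stationary table gave 0.27 (adjusted p 0.104).

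MET2, the homoserine O-acetyltransferase that makes the carbon acceptor for sulphide, was at 0.35, 1.00 and 0.63 on the mid-exponential arrays and at -0.28, 0.56 and 0.62 on the stationary arrays. It was higher in the mutant on all but stationary array 1. The means were 0.66 ± 0.33 and 0.30 ± 0.50 (n = 3 each), and the ranges of the phases overlapped. The authors' deposited tables gave 0.38 (adjusted p 0.039) and 0.10 (adjusted p 0.650).

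MET6, the cobalamin-independent methionine synthase, was at 0.29, 0.11 and -0.33 on the mid-exponential arrays and at 1.28 on stationary array 3, its only stationary ratio. CYS3, the cystathionine gamma-lyase that yields cysteine, was at 0.49, -0.36 and -0.21 in mid-exponential phase and at 0.32, 0.18 and 0.71 in stationary phase. Neither gene kept a sign over the mid-exponential arrays, with means of 0.02 ± 0.32 and -0.03 ± 0.45 (n = 3 each). CYS3 lay above 0 on all 3 stationary arrays, at a mean of 0.40 ± 0.28 (n = 3), with a limma adjusted p of 0.315.

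In stationary phase 0 of the 10 members passed in the authors' deposited table, where 2.04% of all genes were called higher and 2.14% lower. The limma refit also called 0 of the 6 tested members, where it called 2.98% of all genes higher and 1.77% lower. At an unadjusted p under 0.05 the refit had 1 of the 6, beside 1029 of all 4289 genes, which is no larger a share. For the stationary minus mid-exponential difference it called 0 of the 6, where 0.117% of the 4289 genes were called. JLP1 had the widest such difference among the members, 4.31 ± 0.42 (SE, 3 and 2 arrays) with an adjusted p of 0.060. That difference is not independent of the choice of JLP1. The fit also took arrays that share a vessel across the phases as independent, which the replicate block does not. Over the alternatives its adjusted p ran from 0.027, with stationary array 2 left out, where JLP1 has no ratio, to 0.489, with the replicate block, and it was under 0.05 in the first of these alone.

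JLP1 lies on the left arm of chromosome XII, whose genes were mostly higher in the mutant. Of its 359 tested genes 336 had a mid-exponential mean above 0, with medians of 0.68 in mid-exponential and 0.73 in stationary phase, and JLP1 was among 2 with a mean below -1. Taking the chromosome's median off each array put JLP1 at -4.59 in mid-exponential phase and at -0.39 in stationary phase, where it had been at 0.45 before. The mid-exponential sign did not depend on that shift, and the stationary sign did. The part that the chromosome-wide shift plays in single genes was not tested.

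The neighbours of JLP1 did not share its level. Over the nearest tested genes, 7 toward the telomere and 8 toward the centromere, the mid-exponential means ran from -0.84 to 0.89. Several belong to sulphur metabolism themselves. Toward the telomere these were HSU1, a homocysteine synthase that uses hydrogen sulphide, at 0.11, GTT2, a glutathione transferase, at 0.65, MMP1, the S-methylmethionine permease, at 0.89, and MHT1, which passes the methyl group of S-methylmethionine to homocysteine, at -0.08. The other 3 on that side were PAU18, a seripauperin of the cell wall, at 0.67 and the subtelomeric YLL066C at 0.01 and YLL067C at -0.15.

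On the centromere side YLL056C, next to JLP1, was at -0.34. YCT1, a cysteine transporter and the next gene tested, was at 0.05, -0.77 and -1.81 on the mid-exponential arrays and at 0.21, -0.09 and 1.12 on the stationary arrays. Its mid-exponential mean was -0.84 ± 0.93 (n = 3), the nearest to JLP1 of the 15 neighbours, and its array 1 value was that of the wild type. Beyond it lay YLL053C at -0.28, the aquaporin AQY2 at 0.52, the ferric reductase FRE6 at 0.69, the cofilin COF1 at 0.41, LDB18, which is needed for dynactin, at 0.58, and the vacuolar bile acid transporter YBT1 at 0.78.

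**Figure D3:**
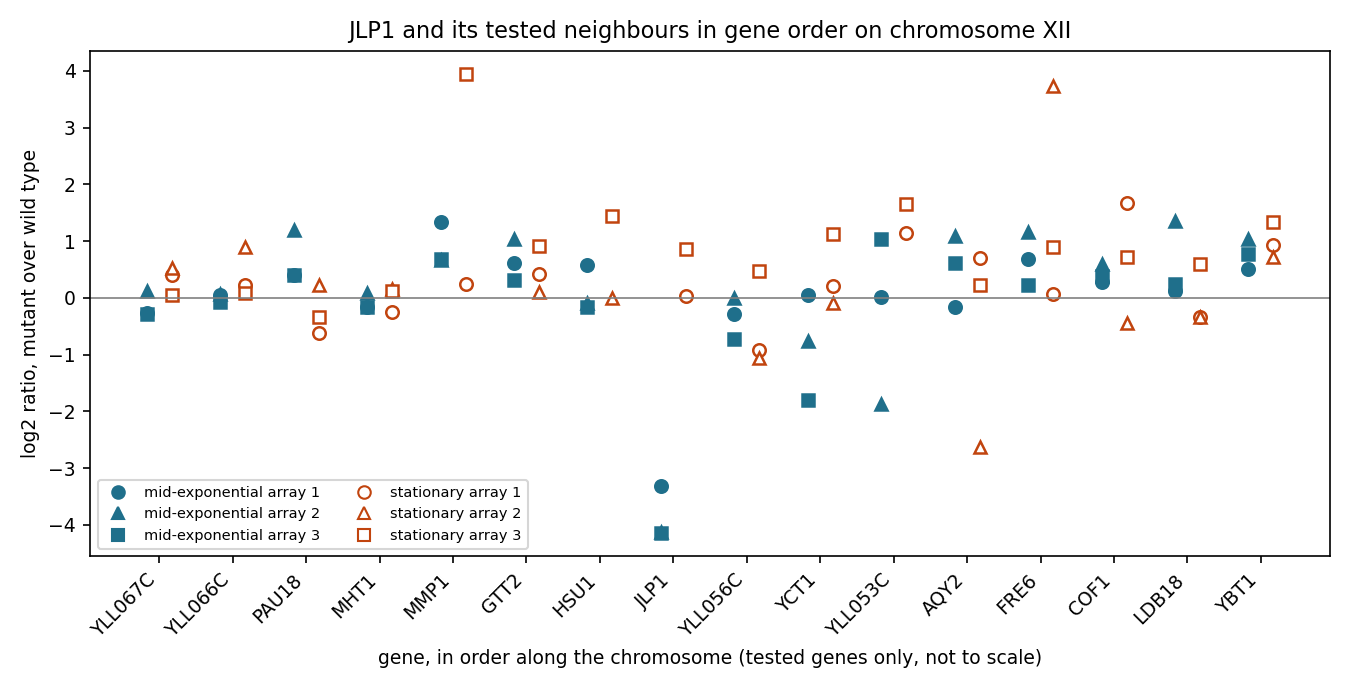
Log2 ratio of mutant over wild type (vertical axis) for JLP1 and the tested genes on either side of it in the order of the reference annotation (horizontal axis, not to scale), with a point per array, filled for mid-exponential and open for stationary. The mid-exponential points of JLP1 lie below -3.3, and the lowest mid-exponential points of any neighbour are those of YCT1 at -1.81 and YLL053C at -1.88.

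The wider sulphur network was read from lists of 67 genes, 57 of them outside the 10. These lists were drawn up with earlier results known. The refit tested 47 of the 57 and called 0 in mid-exponential phase, 1 in stationary phase and 0 for the difference. At an unadjusted p under 0.05 it had 6 and 10 of the 47, beside 570 and 1029 of all 4289 genes, so neither share was above that of all genes. The authors' deposited table called 3 higher and 5 lower of the 57 in mid-exponential phase, where 5.67% and 4.63% of all genes were called. It called 1 higher and 1 lower in stationary phase, where 2.04% and 2.14% of all genes were. The median log2 ratio of the 47 was 0.11 in mid-exponential phase, beside -0.01 for all tested genes, and 0.01 in stationary phase, beside -0.02. With the chromosome XII median taken off, the first of these became -0.0035; 11 of the 67 genes lie on that chromosome.

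Among the other genes of sulphate uptake and reduction the authors' table called 0, which for so few genes is near the shares of all genes given above. MET5, which encodes the other subunit of sulphite reductase, was at -0.01, -0.48 and -0.12 in mid-exponential phase, with a mean of -0.20 ± 0.24 (n = 3), and had no stationary ratio. All 3 of its values lay below those of its partner MET10 on the same array. The second sulphate permease, SUL2, named here after its values were seen because it is the counterpart of SUL1, was at 0.11, 1.32 and 1.21, and at -0.42, 1.19 and 1.40 in stationary phase. It lay above SUL1 on each mid-exponential array. It is on chromosome XII, and its mid-exponential mean of 0.88 ± 0.67 (n = 3) became 0.16 with that chromosome's median taken off. Its limma adjusted p was 0.432.

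In the homocysteine, methionine and S-adenosylmethionine list the genes called besides MET2 were enzymes that make homoserine from aspartate. HOM3, the aspartate kinase at the head of that branch, was at -0.50, -0.68 and -0.25 in mid-exponential phase and at -0.70, -0.93 and -0.99 in stationary phase. It was below the wild type on all 6 arrays. So were BAT2 and UTR4 of the salvage list and the methionine sulphoxide reductase MXR1. UTR4 came as near to 0 as -0.004 and MXR1 as -0.0005. HOM3 was the only other sulphur gene that the refit called in stationary phase, at -0.87 ± 0.15 (SD, n = 3) and an adjusted p of 0.038. It was also lower and called in both of the authors' deposited tables, at -0.41 (adjusted p 0.037) and -0.36 (adjusted p 0.047). The refit no longer called it with any mid-exponential array or stationary array 1 or 3 left out, nor with a dye term, with the arrays brought to 1 spread, with the phase fitted alone or from the first spot alone.

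HOM2, the aspartate semialdehyde dehydrogenase that acts after HOM3, was at -0.72, -0.43 and -0.35 in mid-exponential phase and at 0.47, 1.06 and 0.46 in stationary phase. It was lower on every mid-exponential array and higher on every stationary array. The stationary minus mid-exponential difference was 1.16, with a limma adjusted p of 0.194, so the change of sign did not pass. The authors' deposited table called HOM2 lower in mid-exponential phase, at -0.55 (adjusted p 0.005), and gave 0.33 (adjusted p 0.148) in stationary phase. MET2, which draws on the homoserine these enzymes make, lay on the other side of 0 in mid-exponential phase.

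MET17, the O-acetylhomoserine sulphhydrylase that fixes sulphide, was at 0.14, 0.22 and -0.09 in mid-exponential phase, with a mean of 0.09 ± 0.16 (n = 3), and had no stationary ratio. SAM2, an S-adenosylmethionine synthetase, was at 0.08, -0.49 and -0.88, and at -0.97, -1.89 and 0.42 in stationary phase. SAM1, the other synthetase, was at 0.73, 2.17 and -0.41 in mid-exponential phase. SAM1 and SAM2 are close copies, and their probes could share signal. CYS4, the cystathionine beta-synthase that precedes CYS3, was at 0.23, 0.17 and -0.59, and at -0.70, -1.76 and 0.02 in stationary phase. Each of these genes changed sign between arrays or stayed within 0.25 of 0, and the authors' tables called none of them. The refit called neither SAM2 nor CYS4. It did not test MET17 and SAM1, which had no stationary ratio.

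**Figure D4:**
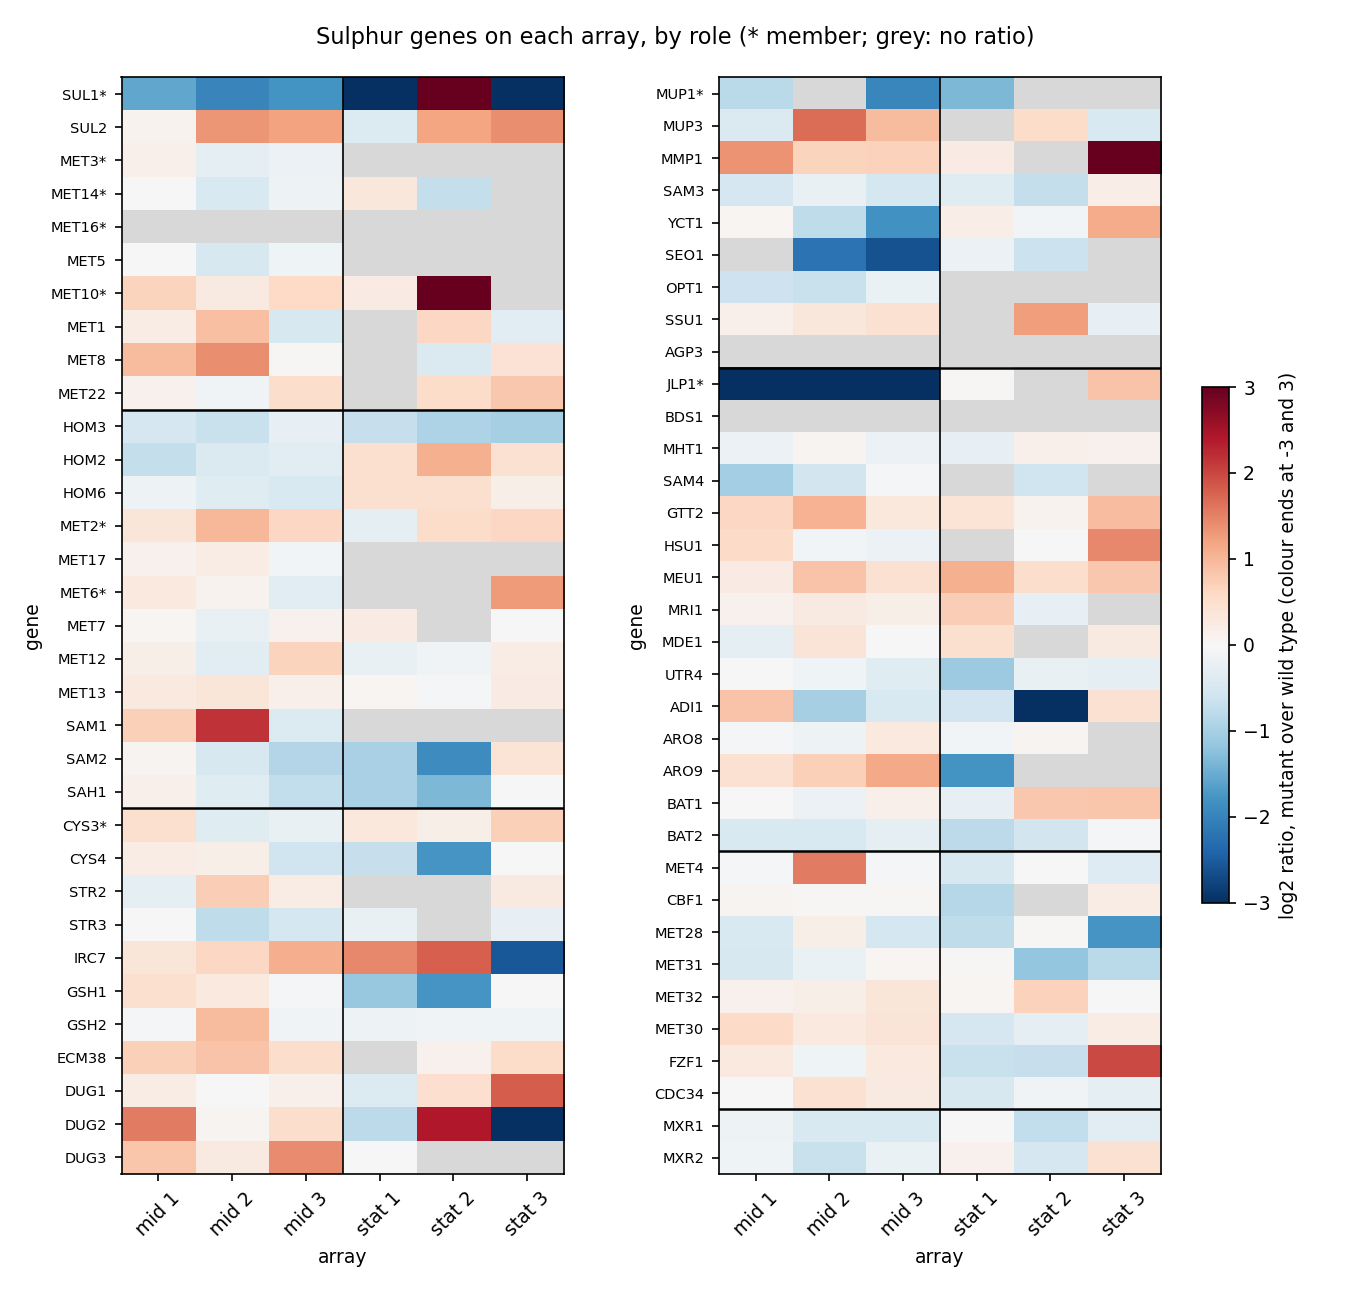
Log2 ratio of mutant over wild type on each array (columns, 3 mid-exponential and then 3 stationary) for the 67 sulphur genes (rows, grouped by role, members starred). Blue is lower and red higher in the mutant, the colour ends at -3 and 3, and grey marks no ratio. JLP1 is the only row in which all 3 mid-exponential values lie beyond -3. HOM3, BAT2, UTR4 and MXR1 are below 0 on all 6 arrays.

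Among 9 genes for uptake and export of sulphur compounds the authors' mid-exponential table called 3 lower, MUP1 included, and 1 higher. Of all genes it called 4.63% lower and 5.67% higher. The lower ones besides MUP1 were YCT1, at -0.75 (adjusted p 0.027) in that deposited table, and SAM3, the S-adenosylmethionine permease, at -0.42 (adjusted p 0.035). SAM3 was at -0.51, -0.22 and -0.53 on the mid-exponential arrays, all below the wild type. MMP1 was the higher one, at 0.55 (adjusted p 0.002), with array values of 1.34, 0.66 and 0.68. MMP1 is on chromosome XII, and its mid-exponential mean of 0.89 ± 0.38 (n = 3) became 0.17 with that chromosome's median taken off. The refit called none of YCT1, SAM3 and MMP1, and it did not test MUP1. Of the 6 genes of this list that it tested, 1 had an unadjusted p under 0.05, about the share of all genes (570 of 4289).

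That gene was SEO1, a putative permease tied to resistance to ethionine sulphoxide, named after its values were seen. It was at -2.22 and -2.62 on mid-exponential arrays 2 and 3 and at -0.18 and -0.66 on stationary arrays 1 and 2, with a limma adjusted p of 0.091. The mid-exponential values lay well below the stationary ones, with 2 arrays in each phase. SEO1 was among the dimmest genes in mid-exponential phase. Its mean log2 intensity was at percentile 7.03 of all genes there and at 41.3 in stationary phase. How this bears on its ratios was not tested. The authors' deposited table had SEO1 at -0.25 (adjusted p 0.181), a far smaller size.

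Of 15 genes for alternative sulphur sources and for salvage, the refit tested 12, and JLP1 was the only 1 it called in mid-exponential phase. The authors' table called ARO9 and GTT2 higher and JLP1 and BAT2 lower, where 5.67% and 4.63% of all genes were called. ARO9, an aromatic aminotransferase that also serves methionine salvage, was at 0.46, 0.71 and 1.13 on the mid-exponential arrays, and at 0.73 (adjusted p 0.003) in the authors' table. BAT2, the cytosolic branched-chain aminotransferase, was at -0.45, -0.45 and -0.30, and at -0.35 (adjusted p 0.044) in that table. Both kept their sign on all 3 mid-exponential arrays. In stationary phase ARO9 had a ratio on array 1 alone, of the opposite sign at -1.78, and the refit did not test it. BAT2 was at -0.79, -0.56 and -0.05 on the stationary arrays.

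GTT2 was at 0.62, 1.03 and 0.31, and at 0.46 (adjusted p 0.020) in the authors' table. MEU1, the methylthioadenosine phosphorylase that opens the salvage pathway, was the only other sulphur gene the authors' stationary table called higher, at 0.52 (adjusted p 0.034). MEU1 was at 1.08, 0.53 and 0.81 on the stationary arrays, all above the wild type. GTT2 and MEU1 are both on chromosome XII. With its median taken off, GTT2 was at -0.07 in mid-exponential phase and MEU1 at 0.07 in stationary phase.

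The 8 regulators gave 0 calls in either source and either phase. Over all genes the share called in 1 direction ran from 0.0466% to 5.67%, so 0 of 8 does not set them apart. MET4, the activator of the sulphur genes, was at -0.05, 1.56 and -0.06 in mid-exponential phase and at -0.48, -0.02 and -0.38 in stationary phase. Its mid-exponential mean of 0.48 ± 0.93 (n = 3) came from array 2 alone. MET30, its inhibitor, was at 0.58, 0.30 and 0.40, and then at -0.50, -0.30 and 0.21, with a limma adjusted p of 0.399 for the difference. The 11 genes of cysteine and glutathione metabolism, 9 of them tested by the refit, and the 2 methionine sulphoxide reductases also gave 0 calls in either source. At the same shares this does not set them apart either.

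The authors' tables also give a mean log2 intensity per gene over both strains. Its percentile within each phase's table, the brightest genes having the highest, shows where a gene stood among all 6388. The 2 tables were normalized separately and give no spread over arrays, so these ranks carry no test. The members were chosen with earlier results of these data known, so the ranks cannot be taken as independent of that choice. A spot's brightness also depends on its probe, so a gene is compared only with itself. Of the 10 members 9 ranked lower in stationary than in mid-exponential phase. So did 37 of the 67 sulphur genes, a share close to that of 3052 among all 6388 genes. Of the 67, 9 fell by more than 40 percentile points (13.4%), against 184 of all genes (2.88%). A gene at or below percentile 40 in mid-exponential phase cannot fall that far. The 67 had a median percentile of 73.0 in that phase, above the middle of all genes, so fewer of them were barred from such a fall. The 2 shares are thus not like for like, and genes of like starting rank were not compared.

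Of these 9 falls, 5 were of core enzymes of the pathway. MET3 went from percentile 87.6 to 11.99, MET14 from 94.1 to 34.1 and MET10 from 93.7 to 50.8. MET5 went from 88.8 to 9.53, and MET17 from 97.6 to 16.5. These genes stood high in mid-exponential phase and low or midway in stationary phase, and MET3, MET5 and MET17 had no stationary ratio on any array. CYS3 went from 93.3 to 60.3, MET6 from 98.6 to 74.1, MET16 from 73.0 to 54.0, MET2 from 68.5 to 49.8 and MUP1 from 47.7 to 30.8.

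SUL1, at 44.7 and 41.7, and JLP1, at 34.4 and 40.2, stayed in the dimmer part of both tables, and JLP1 was the member that did not fall. SAM2 stayed at the top, at 98.4 and 98.6, and MET4 went from 91.4 to 93.4. None of the 8 regulators ranked lower in stationary phase. The other 4 falls of over 40 points were those of the aminotransferases ARO9, from 87.6 to 17.2, and ARO8, from 89.4 to 41.1, the sulphite pump SSU1, from 85.2 to 26.9, and the glutathione transporter OPT1, from 72.8 to 24.4. The loss of stationary ratios and the fall in rank thus went together in MET3, MET5, MET17 and OPT1, but not throughout. SAM1, which went from 20.3 to 16.7, had no stationary ratio either, and AGP3, at 0.69 in both tables, had no ratio in either phase. MET14, MET10, SSU1 and ARO8 fell by more than 40 points with 2 stationary ratios each. How the loss of ratios or the fall in rank bears on the ratios was not tested.

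**Figure D5:**
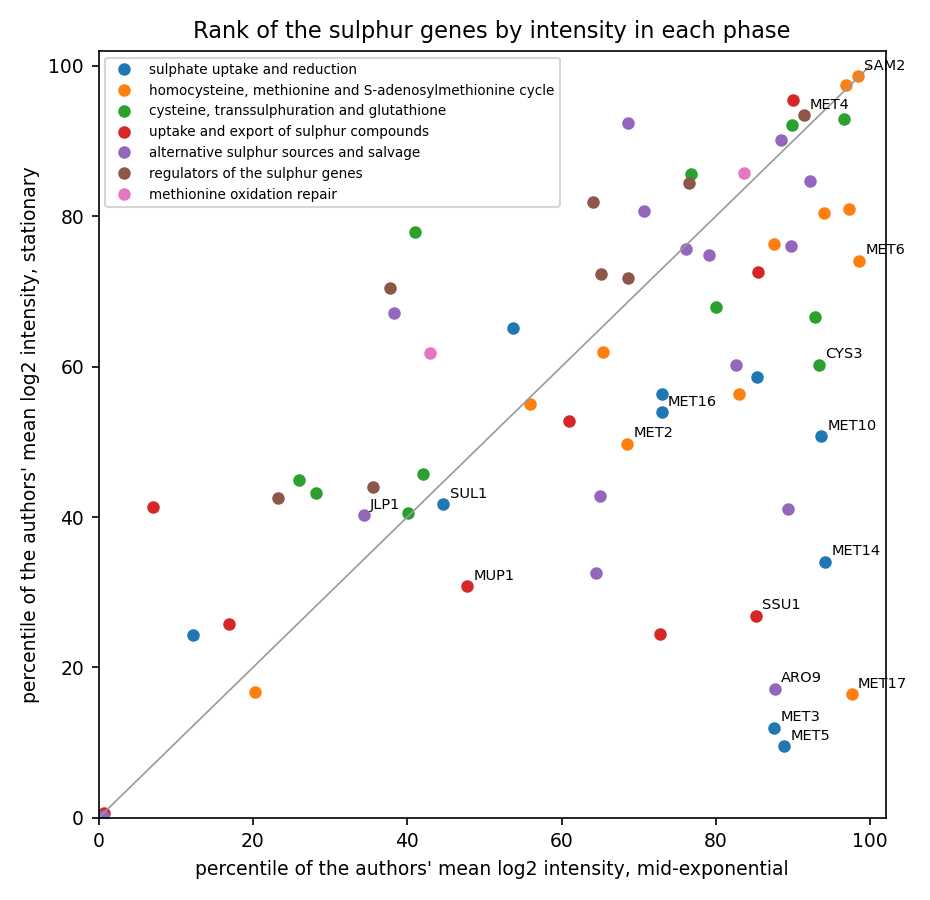
Percentile of the authors' mean log2 intensity among 6388 genes in stationary phase (vertical axis) against mid-exponential phase (horizontal axis) for the 67 sulphur genes, coloured by role, with a line of equal ranks. MET3, MET5 and MET17 lie at the lower right, JLP1 and SUL1 lie near the line, and all 8 regulators lie above it.

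The genes whose ratios lay nearest to those of JLP1 were ranked by the root-mean-square difference of log2 ratios over the 5 arrays that measured it, among 3557 genes. The nearest was HSP26, a small heat shock protein, at 1.64, with -2.63, -3.86 and -4.71 on the mid-exponential arrays and -0.54 and -2.64 on stationary arrays 1 and 3. It was about as low as JLP1 in mid-exponential phase and lay below JLP1 in stationary phase. NCA3, a protein of the SUN family, was at 1.83, DAD3, a subunit of the DASH complex at kinetochores, at 1.85, YPR002C-A at 1.88 and GIP2, a partner of the phosphatase Glc7, at 1.88. A difference of 1.64 on the log2 scale is large, so even the nearest gene did not follow JLP1 closely.

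MET2, SUL1 and CYS3 had all 6 values, with mid-exponential means of 0.66, -1.77 and -0.03. Their mean thus mixes unlike genes, and likeness to it is not likeness to any 1 of them. Nearest to that mean was FMP41, at a root-mean-square difference of 0.229. Next came DJP1, a co-chaperone of peroxisomal import, at 0.293, and DLD2, a dehydrogenase of D-2-hydroxyglutarate, at 0.330. The glucokinase GLK1 followed at 0.332 and PPH22, a catalytic subunit of protein phosphatase 2A, at 0.353. All 5 had a positive ratio on stationary array 2 and negative ones on stationary arrays 1 and 3, as SUL1 did, so that likeness rests on the array that stood apart.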

How the data were processed

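RNA of both strains was compared on 6 two-colour arrays. The authors deposited a log2 ratio for each spot, and per the submitters' processing notes worked in R 2.9.2 with limma. Per the file headers, the authors also deposited, for each phase, a limma table of 6388 genes with log2 fold changes, mean log2 intensities, p-values and adjusted p-values. The sources used here do not give background correction, normalization or spot filter. Depth has no meaning for arrays; their number limits the precision.

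Set against the authors' fold changes, the dye-swapped arrays already ran the same way as the others. The direction, mutant over wild type, follows from the labelled dyes and from KNR4. Spots took names through plate wells, and 228 genes of row E on plates 10 to 19 were left out. Symbols came from the reference annotation R64 for 5849 genes, and 539 kept the file's name. R64 also gave the gene order.

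Spots of a gene were averaged. limma 3.58.1 in R 4.3.3 fitted a mean per phase over all 6 arrays (4 residual and 2.28 prior degrees of freedom), with two-sided tests, Benjamini-Hochberg adjustment over 4289 genes and a threshold of 0.05. An SE is that of the model. The method was tested on simulated data. Tables were made with pandas 2.3.3 and numpy 2.4.6 and plots with matplotlib 3.10.9, under Python 3.11.15.

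The members and lists were chosen with earlier results of these data known. Named genes are the members, list genes called by either source, MET5, MET17, CYS4, SAM1, SAM2, MET4 and MET30, the neighbours of JLP1, the 5 nearest genes and KNR4. Likeness to JLP1 used its 5 arrays in place of 6. Promoter and protein sequences were not used here, so no motif was searched. Array numbers follow accession order, and same-numbered arrays of the 2 phases shared a vessel. It was the mutant's for arrays 1, the wild type's for arrays 2 and both for arrays 3. Their deviations from the phase means correlated at 0.082, 0.214 and -0.048 over 3020 genes, which does not remove that sharing. The main fit did not take them as pairs, so its phase difference treats samples of a shared vessel as independent. The replicate block, an alternative, pairs them. Alternatives changed the dye term, spread, centring, spots, filter, phases fitted, wells, chromosome XII, source and arrays.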

Additional observations from a re-analysis of the deposited data

How the results depend on the processing

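The size of JLP1 in mid-exponential phase changed little, but its call did. Against -3.86 (adjusted p 0.028), it was -3.93 (adjusted p 0.098) with a dye term, -3.84 (0.055) from the second spot alone and -3.86 (0.093) with the phase fitted alone, and it ran from -4.14 to -3.72 as single arrays were left out. It lost its call without any mid-exponential array (adjusted p 0.197, 0.389 and 0.240 without arrays 1, 2 and 3) and without stationary array 1 (0.097) or 3 (0.068). It was -1.31 in the authors' table, -4.89 with arrays brought to 1 spread and -4.59 with the chromosome XII median taken off, and called in each. The number of members called in mid-exponential phase was 1, and 0 with the dye term, the second spot, the phase alone or genes on all 6 arrays only, which leaves out JLP1. It was 5 in the authors' table and ran from 0 to 2 over single arrays left out, the 2 being JLP1 and SUL1 without stationary array 2. In stationary phase it was 0, and 0 to 1 with arrays left out: MET10 at 3.20 (adjusted p 0.040) without array 1 and SUL1 at -3.24 (adjusted p 0.0046) without array 2. For the difference between phases it was 0, and 0 to 1 with arrays left out (JLP1). With array number as a replicate block, which pairs the arrays that share a vessel across phases, the count was 0 and JLP1 differed by 4.18 (adjusted p 0.489).

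For the 47 other sulphur genes, the mid-exponential count of 0 was 1 with arrays brought to 1 spread (SEO1, lower) and 8 in the authors' table. The stationary count of 1 was 0 with the dye term, 1 spread or the phase alone, 2 in the authors' table, and 0 to 2 with arrays left out. From the first spot alone it was 1, MEU1 called higher, and not HOM3. The mid-exponential median of 0.11 was 0.0523 with the dye term, 0.169 with 1 spread, -0.0332 over genes on all 6 arrays, -0.0035 with the chromosome XII median taken off, 0.0393 in the authors' table, and 0.0643 to 0.11 with arrays left out. Except where stated, the cause was not tested. Of the values for single members under alternatives, those of JLP1 in mid-exponential phase (above) aside, 258 kept their direction and call or moved by less than the spread, 7 gained a call and 4 moved further. The motif search was not run. Dim genes with few stationary ratios limit what these arrays show of the stationary phase.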
